A study of Mus musculus with 8 samples.

Results

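Krüppel-like factors (KLFs) are transcription factors that bind GC-rich and CACCC sequences through zinc fingers at their C terminus, and the members differ in the cofactors that their N termini recruit. In T cells, Klf2 is known for holding naive cells at rest and for driving the egress receptor gene S1pr1, and Klf4 for restraining division. Klf10 is induced by TGF-β and has been linked to Foxp3 in Treg, whereas Klf13 was first described as an activator of the chemokine gene Ccl5 in T cells. The 8 genes described here (Klf2, Klf3, Klf4, Klf6, Klf7, Klf10, Klf11 and Klf13) were chosen by name as KLF family members, out of 38215 genes listed in the deposited tables. Earlier results of these data were known when they were chosen.

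Bulk RNAseq had been performed on sorted FoxP3+ cells, of which 4 libraries came from bone marrow (BM-Treg) and 4 from spleen (SP-Treg), of naive B6.FoxP3-GFP mice aged 12 weeks, in which Treg carry a green fluorescent reporter, and the labels give the genotype of every library as C57Bl/6 with no treatment. RNA was amplified from 15 ng by the NuGEN SPIA method and read from a single end over 80 nt. BM-Treg replicates 1 to 3 were labelled batch 1 and female, while replicate 4 and all SP-Treg libraries were labelled batch 3 and male. The methods of the study name female mice except where stated, and the sex in the labels was not checked here. Tissue, batch and sex therefore cannot be told apart for 3 of the 4 BM-Treg libraries, and only BM-Treg replicate 4 shares its batch and sex with SP-Treg. A fit that also holds a term for batch takes its tissue difference from BM-Treg replicate 4 against SP-Treg. Calls kept or lost with a batch term below therefore rest on that BM-Treg library. The titles of the SP-Treg libraries carry number pairs that the labels do not explain, so it is not known whether libraries were made from pooled or shared mice.

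Expected counts (estimated reads per gene) summed to between 12427136 and 21921252 per library, and between 19.2% and 32.9% of them were mitochondrial. The sort was checked against markers: summed normalized counts (CPM, read counts scaled to a common depth of 1e6 reads, adjusted to TMM library sizes) over 8 T cell and Treg markers were 7429 to 8843 in BM-Treg and 8214 to 9002 in SP-Treg. Foxp3 had BM-Treg and SP-Treg means of 1746 ± 246 and 1458 ± 193 CPM (SD, n = 4 each; edgeR adjusted p = 0.241). B cell markers summed to 14.0 to 19.2 CPM in BM-Treg and 14.5 to 149.8 CPM in SP-Treg, and erythroid markers to 7.40 to 11.1 CPM and 1.98 to 138 CPM. The sums of neutrophil (up to 18.4 CPM), monocyte and macrophage (up to 28.5), pDC (up to 64.4), endothelial (up to 72.8) and plasma cell markers (up to 495) overlapped between the tissues, and their part in the results was not tested. The endothelial sum was nearly all Pecam1 (72.3 of 72.8 CPM in its highest library), with Tie1 and Emcn at 0, and the plasma cell sum was nearly all Prdm1 and Xbp1, with Sdc1 at no more than 0.588 CPM. Pecam1, Prdm1 and Xbp1 are also expressed by T cells. The highest pDC sum, in SP-Treg replicate 3, was mostly Ccr9 (41.8 of 64.4 CPM), and Siglech was at no more than 0.822 CPM in any library. Klf1, the erythroid member of the family, had at most 7 counts in a library. In bulk RNA, a change in the share of cells that express a gene and a change in RNA per cell cannot be told apart.

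All 8 KLF genes passed the filter on low counts, and 2 of them, Klf6 and Klf13, were upregulated in BM-Treg at an edgeR adjusted p below 0.05. None was downregulated. Of the 13397 genes tested, 3.72% were upregulated, 5.02% were downregulated and 8.75% were called in either direction. The same 2 KLF genes were those in which every BM-Treg library lay above every SP-Treg library, a pattern shown by 7.61% of all genes tested, while 8.55% showed the opposite and 16.2% did not overlap in either direction. The log2 fold change was positive in 7 of the 8 genes, beside 6517 of the 13397 genes tested. Its median was 0.30, beside a median of -0.01 over all genes tested. The 8 genes were chosen by name with earlier results of these data known, so these counts describe the members and were not tested as a list.

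**Figure D1:**
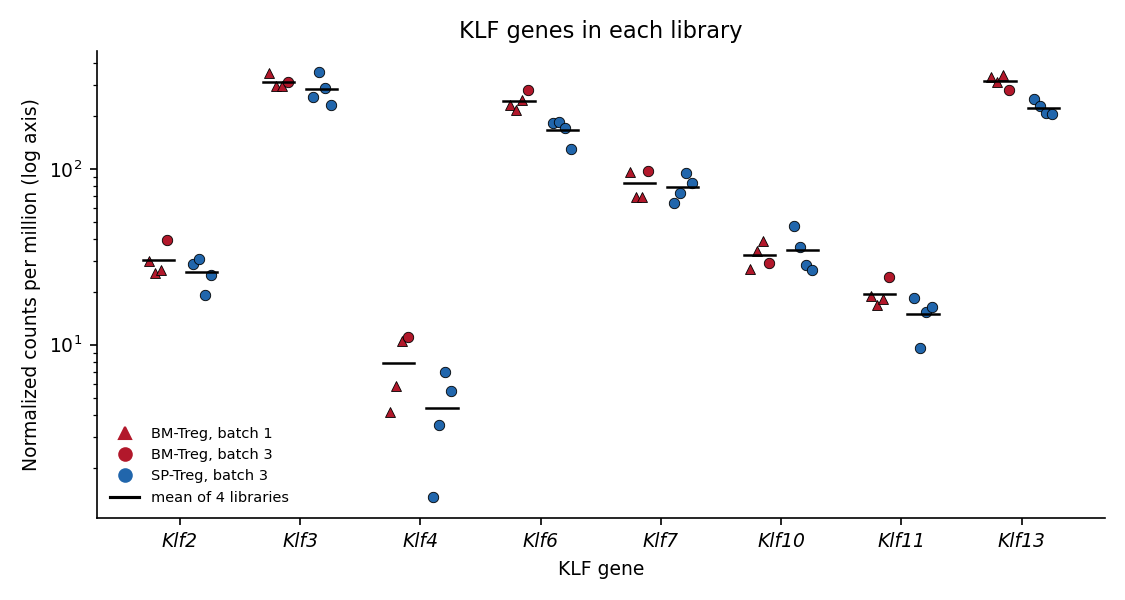
Normalized counts (CPM, log axis) of the 8 KLF genes in each library. Triangles are BM-Treg libraries of batch 1, red circles the BM-Treg library of batch 3, blue circles the SP-Treg libraries, and bars the mean of 4 libraries. The tissues do not overlap for Klf6 and Klf13, and they overlap for the other 6 genes.

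Klf6 is a broadly expressed activator that is induced early after stimulation in many cell types. It was at 232, 217, 246 and 281 CPM in BM-Treg replicates 1 to 4 and at 183, 184, 170 and 129.8 CPM in SP-Treg replicates 1 to 4. The lowest BM-Treg library thus stood above the highest SP-Treg library, and SP-Treg replicate 4 was the lowest of all 8. The means were 244 ± 27.2 and 167 ± 25.4 CPM (SD, n = 4 each), a 1.46-fold upregulation (log2 fold change 0.55, SE 0.12, 95% interval 0.29 to 0.81, edgeR adjusted p = 0.0131). The exact two-sided permutation test on log2 CPM gave p = 0.0286, the smallest value that 4 against 4 libraries allow. Within batch 3, BM-Treg replicate 4 exceeded the SP-Treg mean by 0.77 on the log2 scale, and BM-Treg replicates 1 to 3 exceeded it by 0.49. A fit with a batch term again rests on BM-Treg replicate 4 against SP-Treg. It gave a log2 fold change of 0.75 at an edgeR adjusted p of 0.04999, just under the threshold. Batch 3 alone gave 0.77 without a call.

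Klf13 is a zinc finger factor that recruits the Sin3A corepressor and that also activates Ccl5 in T cells. Its values were 332, 313, 341 and 281 CPM in BM-Treg replicates 1 to 4 against 249.8, 229, 208 and 206 CPM in SP-Treg replicates 1 to 4. Here BM-Treg replicate 4 was the lowest of its tissue, the reverse of its place for Klf6, and still exceeded each SP-Treg library. The means of 317 ± 26.6 and 223 ± 20.5 CPM (SD, n = 4 each) corresponded to a 1.42-fold upregulation (log2 fold change 0.50, SE 0.10, 95% interval 0.28 to 0.72, edgeR adjusted p = 0.00773, exact permutation p = 0.0286). BM-Treg replicate 4 exceeded the SP-Treg mean by 0.34 on the log2 scale, and replicates 1 to 3 exceeded it by 0.56. With a batch term the log2 fold change of Klf13 was 0.33 and its call was lost (edgeR adjusted p = 0.266). The antisense gene E030018B13Rik overlaps Klf13 at a mean of 1.49 CPM, and whether the counting used strand is not given in the sources used here.

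The bases just upstream of the RefSeq starts of Klf6 and Klf13, the 2 upregulated members, are shown here with those of Klf2 around its only match to the box bound by MEF2 factors. In GRCm38.p6, the Klf6 stretch is chr13:5861239-5861478 on the plus strand, the Klf13 stretch is chr7:63938916-63939165 on the minus strand, and the Klf2 stretch is chr8:72318914-72318983 on the plus strand. Capitals mark matches to the motifs searched on both strands, which are TGACGT and CACCC in Klf13 and the MEF2 box in Klf2, and the Klf6 stretch held none.
Klf6: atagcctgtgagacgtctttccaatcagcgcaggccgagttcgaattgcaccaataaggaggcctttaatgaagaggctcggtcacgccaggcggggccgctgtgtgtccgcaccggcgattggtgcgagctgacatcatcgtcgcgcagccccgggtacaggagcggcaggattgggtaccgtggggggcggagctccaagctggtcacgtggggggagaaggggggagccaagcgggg
Klf13: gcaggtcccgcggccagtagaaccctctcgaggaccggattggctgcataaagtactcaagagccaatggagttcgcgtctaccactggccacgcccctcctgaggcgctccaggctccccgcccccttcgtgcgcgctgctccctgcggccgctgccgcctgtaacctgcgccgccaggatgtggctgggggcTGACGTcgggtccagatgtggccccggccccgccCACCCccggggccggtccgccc
Klf2: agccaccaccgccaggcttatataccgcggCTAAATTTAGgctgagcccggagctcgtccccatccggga

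RefSeq held an upstream stretch of 250 bases for 7 of the 8 members, all but Klf10. Their GC content was 59.2% (Klf7) to 78.4% (Klf3), beside a median of 52.4% over 32851 such stretches. CACCC, the sequence that KLFs themselves bind, was matched in 4 of the 7, with 5 matches upstream of Klf3, 3 of Klf7 and 1 each of Klf2 and Klf13, and in 52% of all stretches. TGACGT (the CRE core) was found upstream of Klf13 alone, 56 bases before its start, and in 6.47% of all. The MEF2 box was found upstream of Klf2 alone, 118 bases before its start, and in 2.92% of all. No member held TGTTTAC (3.17% of all), TGANTCA (6.75%) or a CArG box (1.47%). Matches of different motifs did not overlap, and all are descriptions of letters in a window.

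Klf2 and Klf4 are the members best known for T cell quiescence. Klf2 was at 29.9, 25.6, 26.7 and 39.2 CPM in BM-Treg replicates 1 to 4 and at 28.7, 30.6, 19.3 and 24.8 CPM in SP-Treg replicates 1 to 4. The tissues overlapped, with the highest value in BM-Treg replicate 4 and the lowest in SP-Treg replicate 3. Its log2 fold change of 0.23 (SE 0.17, edgeR adjusted p = 0.454) had a 95% interval of -0.13 to 0.58, which leaves room for either direction.

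Klf4 had the lowest counts of the members, between 19 and 239 per library, and the widest spread. It was at 4.17, 5.84, 10.5 and 11.0 CPM in BM-Treg replicates 1 to 4 and at 1.37, 3.51, 7.03 and 5.44 CPM in SP-Treg replicates 1 to 4, so that BM-Treg replicates 1 and 2 lay within the SP-Treg range. The log2 fold change of 0.86 (SE 0.46, 95% interval -0.15 to 1.87) was the largest of the 8 but did not pass the test (edgeR adjusted p = 0.294, exact permutation p = 0.171). BM-Treg replicate 4 exceeded the SP-Treg mean by 1.54 on the log2 scale and replicates 1 to 3 by 0.76.

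Klf7, which is known from neurons and fat cells, belongs with Klf2, Klf4 and Klf6 to the members that mostly activate genes. It ranged from 69.0 to 97.4 CPM in BM-Treg and from 63.8 to 94.3 CPM in SP-Treg, nearly the same interval. The log2 fold change was 0.08 (SE 0.15, 95% interval -0.24 to 0.40, edgeR adjusted p = 0.803).

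Klf3 represses genes through the CtBP corepressors. It was at 352, 296, 297 and 310 CPM in BM-Treg replicates 1 to 4 and at 257, 356, 289 and 232 CPM in SP-Treg replicates 1 to 4. SP-Treg replicate 2 held the highest value of all 8 libraries, and the tissues overlapped. With a log2 fold change of 0.15 (SE 0.13, 95% interval -0.13 to 0.42, edgeR adjusted p = 0.536), a change as large as that of Klf6 lay outside the interval.

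Klf10 and Klf11, both induced by TGF-β and both partners of the Sin3A corepressor, were not called and pointed in opposite directions. Klf10 was at 26.9, 34.0, 39.0 and 29.2 CPM in BM-Treg replicates 1 to 4 and at 47.2, 35.9, 28.5 and 26.5 CPM in SP-Treg replicates 1 to 4. The tissues overlapped throughout, and SP-Treg replicate 1 was the highest library. Its log2 fold change of -0.10 (SE 0.18, 95% interval -0.48 to 0.29, edgeR adjusted p = 0.798) turned positive when BM-Treg replicate 1 (0.01) or SP-Treg replicate 1 (0.11) was left out. Klf11 was at 18.9, 16.8, 18.1 and 24.3 CPM in BM-Treg replicates 1 to 4 and at 18.4, 9.58, 15.4 and 16.4 CPM in SP-Treg replicates 1 to 4. SP-Treg replicate 2 was the lowest library and BM-Treg replicate 4 the highest, the other 6 lay between 15.4 and 18.9 CPM, and the log2 fold change was 0.38 (SE 0.19, 95% interval -0.03 to 0.79, edgeR adjusted p = 0.255, exact permutation p = 0.0857).

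BM-Treg replicate 4 was the highest or lowest BM-Treg library for several members. It lay above the range of replicates 1 to 3 for Klf2, Klf4, Klf6, Klf7 and Klf11, below it for Klf13, and within it for Klf3 and Klf10. For Klf4 (11.0 beside 10.5 CPM) and Klf7 (97.4 beside 96.6 CPM) it was barely above the next library. Any single library of 4 is often the highest or lowest, and the share of all genes with this pattern was not counted. Within batch 3 BM-Treg replicate 4 differed from the SP-Treg mean on the log2 scale by 0.62 for Klf2, 0.15 for Klf3, 0.32 for Klf7, -0.20 for Klf10 and 0.73 for Klf11. Replicates 1 to 3 differed from that mean by 0.10, 0.16, -0.01, -0.03 and 0.30 for the same genes. Batch 3 holds a single BM-Treg library, so its spread rests on SP-Treg, and at an edgeR adjusted p below 0.05 no member was called there, beside 79 of all genes.

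The rest of the family was measured alongside. Of the 9 other KLF genes, 4 passed the filter, and Klf16, a repressor that works with Sin3A, was upregulated. It was at 6.63, 7.70, 9.03 and 7.44 CPM in BM-Treg replicates 1 to 4 and at 4.73, 4.31, 5.36 and 4.41 CPM in SP-Treg replicates 1 to 4, with no overlap (log2 fold change 0.71, SE 0.20, edgeR adjusted p = 0.0420). When each library was left out in turn, that call was kept once, without BM-Treg replicate 1, and the edgeR adjusted p ranged from 0.0445 to 0.126 over the 8. With a batch term the call was lost as well (log2 fold change 0.66, edgeR adjusted p = 0.268). Klf8 (log2 fold change 0.50), Klf9 (-0.18) and Klf12 (0.31) were not called, and Klf1, Klf5, Klf14, Klf15 and Klf17 did not pass the filter.

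The Sp genes encode the nearest relatives of the KLFs and bind similar GC boxes. Of 9 Sp genes 5 passed the filter, 2 were upregulated and none was downregulated. Sp6, known from tooth and skin epithelium, was at 54.5, 69.0, 52.1 and 61.5 CPM in BM-Treg replicates 1 to 4 and at 26.4, 34.5, 29.99 and 23.1 CPM in SP-Treg replicates 1 to 4. Every BM-Treg library exceeded every SP-Treg library (log2 fold change 1.06, SE 0.14, edgeR adjusted p = 0.000710), and the call was kept with a batch term (1.11, edgeR adjusted p = 0.0246) and in 8 of 8 fits without a library. Sp2, a widely expressed relative of Sp1, had BM-Treg and SP-Treg means of 84.1 ± 12.6 and 60.5 ± 6.48 CPM (SD, n = 4 each; log2 fold change 0.48, SE 0.12, edgeR adjusted p = 0.0270). Its call was kept with a batch term (edgeR adjusted p = 0.0482) but in 4 of the 8 fits without a library, being lost without BM-Treg replicate 3 or 4 or SP-Treg replicate 1 or 4 (edgeR adjusted p from 0.0194 to 0.0743 over the 8). Both genes are overlapped by an antisense gene, D030028A08Rik at 4.82 CPM for Sp2 and Gm11532 at 3.16 CPM for Sp6. Sp1, Sp3 and Sp4, the widely expressed members, had log2 fold changes of 0.11, 0.12 and 0.09 and were not called.

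**Figure D2:**
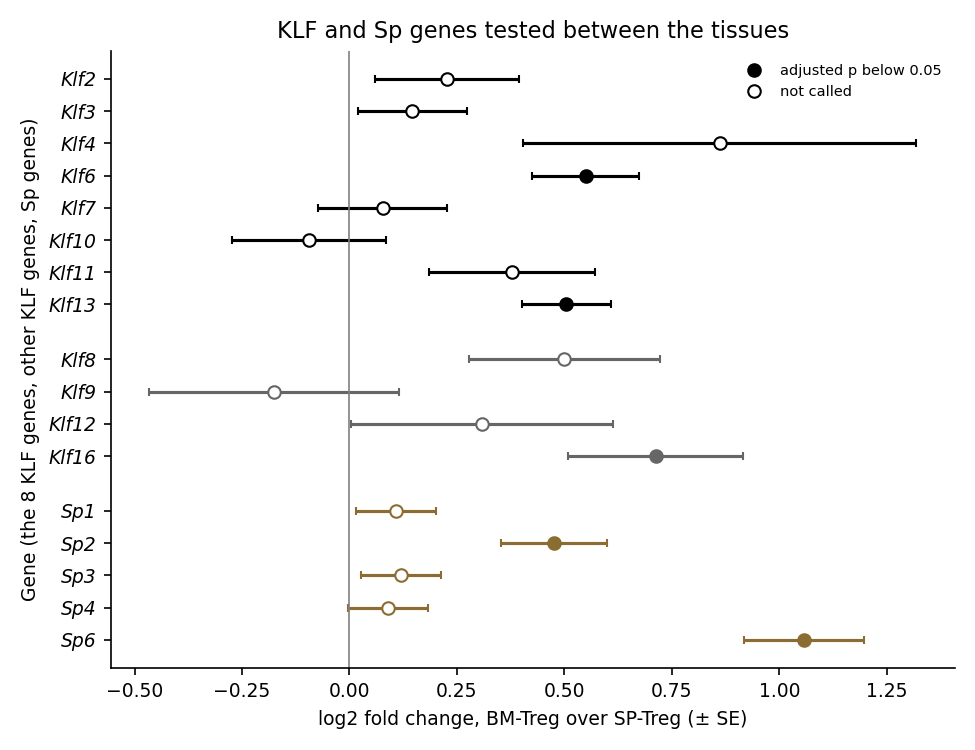
Log2 fold change of BM-Treg over SP-Treg (x axis, bars are ± SE) for the 8 KLF genes, the 4 other KLF genes and the 5 Sp genes that passed the filter. Filled symbols have an edgeR adjusted p below 0.05: Klf6, Klf13, Klf16, Sp2 and Sp6.

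Klf2 and Klf4 are known to be driven by FOXO factors and by the ERK5 pathway, in which Map3k3 and Map2k5 activate ERK5 (Mapk7) and ERK5 activates MEF2 factors. Of the 8 genes of these pathways, 1 was upregulated and none was downregulated (median log2 fold change 0.18). The upregulated gene was Mef2d, at 481, 466, 520 and 454 CPM in BM-Treg replicates 1 to 4 and at 328, 325, 368 and 293 CPM in SP-Treg replicates 1 to 4. The tissues did not overlap (log2 fold change 0.55, SE 0.10, edgeR adjusted p = 0.00407), and the call was kept in 8 of 8 fits without a library. With a batch term it was lost (0.46, edgeR adjusted p = 0.135). Foxo1, the FOXO factor most tied to Klf2 in T cells, had a log2 fold change of 0.07 (SE 0.11, edgeR adjusted p = 0.766).

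Among 9 genes known as KLF targets, all of which passed the filter, none passed the edgeR threshold, 3 had an unadjusted p under 0.05, and DESeq2 called 2 (Ccl5 and Lgals3) and limma-voom 1 (Ccl5). Over all genes, DESeq2 called 1703, against 1172 by edgeR and 1210 by limma-voom. Ccl5, the chemokine gene that Klf13 activates, was at 31.8, 39.7, 58.2 and 29.7 CPM in BM-Treg replicates 1 to 4 and at 15.8, 29.3, 8.88 and 11.98 CPM in SP-Treg replicates 1 to 4. The lowest BM-Treg library was barely above the highest SP-Treg library, replicate 2 (log2 fold change 1.28, SE 0.38, edgeR adjusted p = 0.0809). Without SP-Treg replicate 2 the edgeR adjusted p of Ccl5 was 0.00561 at a log2 fold change of 1.70, and without the other libraries it stayed above the threshold, up to 0.179. Lgals3, a galectin gene, was at 3.52 ± 0.579 and 1.71 ± 0.760 CPM (SD, n = 4 each; log2 fold change 1.04, SE 0.36, edgeR adjusted p = 0.0916). S1pr1, an egress receptor gene that Klf2 drives, had a log2 fold change of 0.32 (SE 0.12, edgeR adjusted p = 0.105).

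The 13 genes of KLF cofactors and ubiquitin ligases, such as Ctbp1, Sin3a, Ep300, Wwp1 and Itch, were all tested. None passed the edgeR threshold, none had an unadjusted p under 0.05, and neither DESeq2 nor limma-voom called any. Their median log2 fold change was -0.01. The smallest edgeR adjusted p values were those of Hdac2, a histone deacetylase (log2 fold change -0.27, adjusted p = 0.234), and Ctbp1, the partner of Klf3 (0.24, adjusted p = 0.240).

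Since Klf10 and Klf11 respond to TGF-β, the genes of that pathway were measured beside them. Of 10 genes 8 were tested, none was upregulated and 1 was downregulated, with a median log2 fold change of -0.15. Skil, which encodes the SMAD corepressor SnoN, was at 137, 146, 174 and 108 CPM in BM-Treg replicates 1 to 4 and at 241, 224, 208 and 232 CPM in SP-Treg replicates 1 to 4. All BM-Treg libraries lay below all SP-Treg libraries (log2 fold change -0.68, SE 0.13, edgeR adjusted p = 0.00421). The log2 fold change was -1.07 with a batch term (edgeR adjusted p = 0.0147) and -1.05 in batch 3 alone. Both of these set BM-Treg replicate 4 against SP-Treg and are not separate results. On length-scaled values, log2(FPKM + 1) with limma-trend, the Skil call was lost (-0.48, limma-trend adjusted p = 0.0629).

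Several KLFs, Klf2, Klf4, Klf6 and Klf10 among them, are themselves rapidly induced or lost on stimulation, so the immediate early genes were listed as well. Of 23 such genes 21 were tested, 4 were upregulated and 5 downregulated (median log2 fold change 0.03). Among the genes called, Fosb, a subunit of AP-1, rose most (log2 fold change 2.54, SE 0.58, edgeR adjusted p = 0.0452), followed by the MAPK phosphatase gene Dusp1 (1.38, SE 0.29, edgeR adjusted p = 0.0236) and the AP-1 subunit gene Junb (1.31, SE 0.27, edgeR adjusted p = 0.0216). Fos, whose libraries did not overlap either, had a log2 fold change of 1.43 that did not pass the test (edgeR adjusted p = 0.0712). With each library left out in turn, the call of Fosb was kept in 2 of 8 fits, without SP-Treg replicate 1 or 3 (edgeR adjusted p 0.0398 to 0.102 over the 8). That of Dusp1 was kept in 4 and lost without BM-Treg replicate 3 or 4 or SP-Treg replicate 2 or 4 (0.0192 to 0.0656), and that of Junb was kept in 6 and lost without BM-Treg replicate 4 or SP-Treg replicate 3 (0.00366 to 0.0551). Egr2, a zinc finger gene induced through the T cell receptor, fell (log2 fold change -2.41, SE 0.28, edgeR adjusted p = 0.00131), in 8 of 8 such fits. With a batch term 1 of the 9 calls was kept, that of Egr2.

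The order of the SP-Treg libraries, noted after the values were seen, was the same for Klf4, Fosb and Dusp1. In SP-Treg replicates 1 to 4, Fosb was at 5.54, 9.42, 29.6 and 23.5 CPM and Dusp1 at 131, 196, 306 and 260 CPM, so that both were lowest in replicate 1 and highest in replicate 3, as Klf4 was. SP-Treg replicate 1 also had the smallest mitochondrial share (19.2%). How many of all genes tested held this order was not counted. Of the other immediate early genes tested, Zfp36 and Myc held the SP-Treg order of Klf4. Myc, unlike Klf4, was downregulated in BM-Treg (log2 fold change -1.04, edgeR adjusted p = 0.0413). Others did not: Junb and Fos were highest in SP-Treg replicate 4, and Egr2 was lowest in SP-Treg replicate 3. In BM-Treg replicates 1 to 4, Fosb was at 80.4, 64.3, 102 and 148 CPM and Dusp1 at 413, 473, 784 and 662 CPM, with replicates 3 and 4 the higher pair for Klf4, Fosb and Dusp1 alike. Every BM-Treg library exceeded every SP-Treg library for Fosb and Dusp1 but not for Klf4. Whether cell isolation had a part in these levels was not tested.

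**Figure D3:**
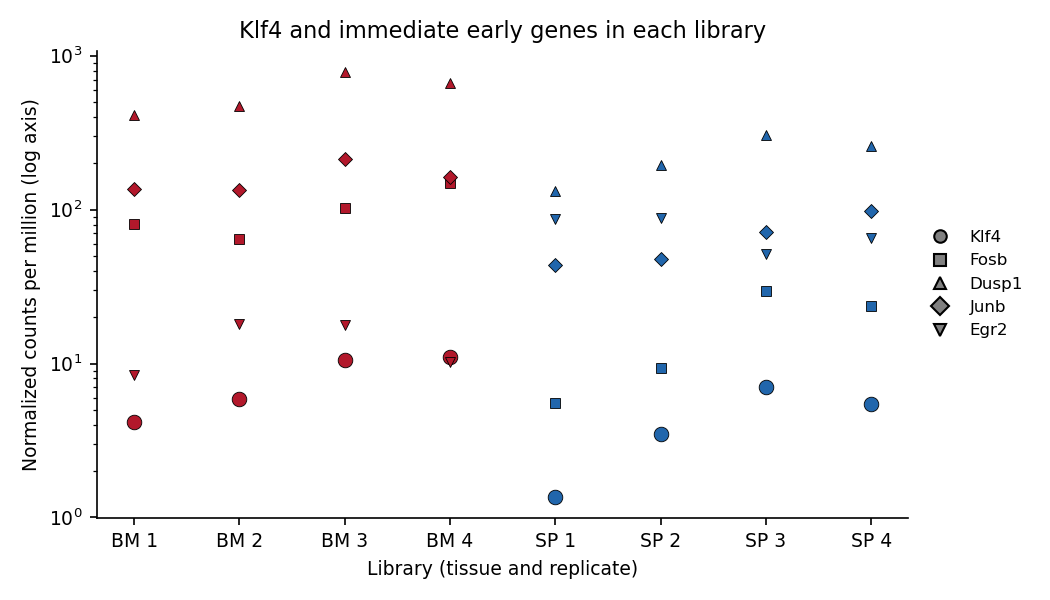
Normalized counts (CPM, log axis) of Klf4 and of the immediate early genes Fosb, Dusp1, Junb and Egr2 in each BM-Treg (red) and SP-Treg (blue) library. Klf4, Fosb and Dusp1 are lowest in replicate 1 and highest in replicate 3 among the SP-Treg libraries. Among these, Junb is highest in replicate 4 and Egr2 is lowest in replicate 3. Egr2 is lower in each BM-Treg library than in each SP-Treg library.

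Of 10 genes that hold T cells at rest, all tested, 1 was upregulated and 1 downregulated (median log2 fold change 0.12). Tob1, an antiproliferative gene, rose (log2 fold change 0.42, SE 0.10, edgeR adjusted p = 0.0159), and its call was lost without BM-Treg replicate 3 (edgeR adjusted p = 0.0586). Slfn2, whose loss breaks T cell quiescence, fell (log2 fold change -0.49, SE 0.10, edgeR adjusted p = 0.00695), and its call was kept in 8 of 8 fits without a library. On length-scaled values, log2(FPKM + 1) with limma-trend, the Slfn2 call was lost (-0.41, limma-trend adjusted p = 0.0653). Neither Tob1 nor Slfn2 was called with a batch term.

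To set the members beside each other, FPKM values were used, which are divided by transcript length. Klf3 was the most abundant member at 158 ± 16.5 FPKM in BM-Treg and 136 ± 21.0 FPKM in SP-Treg (SD, n = 4 each). Klf6 (60.1 ± 4.39 and 39.4 ± 7.25 FPKM) and Klf13 (51.4 ± 5.98 and 34.6 ± 5.46 FPKM) followed. Next came Klf7 (24.2 ± 4.52 and 21.9 ± 3.07 FPKM) and Klf2 (17.4 ± 2.78 and 14.3 ± 3.30 FPKM). Klf10 (11.1 ± 2.08 and 11.5 ± 3.94 FPKM), Klf11 (5.79 ± 0.743 and 4.10 ± 1.11 FPKM) and Klf4 (3.12 ± 0.899 and 1.57 ± 0.832 FPKM) closed the order, which was the same in both tissues. The order depends on the transcript lengths used, and the annotation they come from is not given. In CPM, which is not divided by length, Klf3 and Klf13 had means of 314 and 317 in BM-Treg and of 284 and 223 in SP-Treg.

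Some neighbours in this order overlapped in their ranges over libraries. In BM-Treg these were Klf6 with Klf13 and Klf7 with Klf2, and in SP-Treg Klf6 with Klf13 and Klf2 with Klf10. Within single libraries each member exceeded the next one in 4 of 4 libraries of a tissue, except that Klf6 exceeded Klf13 in 3 of 4 SP-Treg libraries. Klf3, Klf6 and Klf13 together made up 77.3% to 82.5% of the summed FPKM of the 8 members in every library. Klf3 alone made up 47.7% ± 2.43 in BM-Treg and 51.6% ± 3.48 in SP-Treg, Klf6 18.2% ± 1.78 and 14.9% ± 1.21, and Klf13 15.5% ± 1.59 and 13.2% ± 1.39 (SD, n = 4 each). The sum itself was 359, 314.5, 332 and 320 FPKM in BM-Treg replicates 1 to 4 and 290, 289, 251 and 224 FPKM in SP-Treg replicates 1 to 4, without overlap. The sum includes Klf6 and Klf13, whose libraries did not overlap on their own. Of single genes tested, 7.61% had every BM-Treg library above every SP-Treg library in CPM, which is not a share for sums of 8 genes. FPKM was not scaled by TMM. On log2(FPKM + 1) the median log2 fold change over all genes tested was 0.05, beside -0.01 in the edgeR fit.

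**Figure D4:**
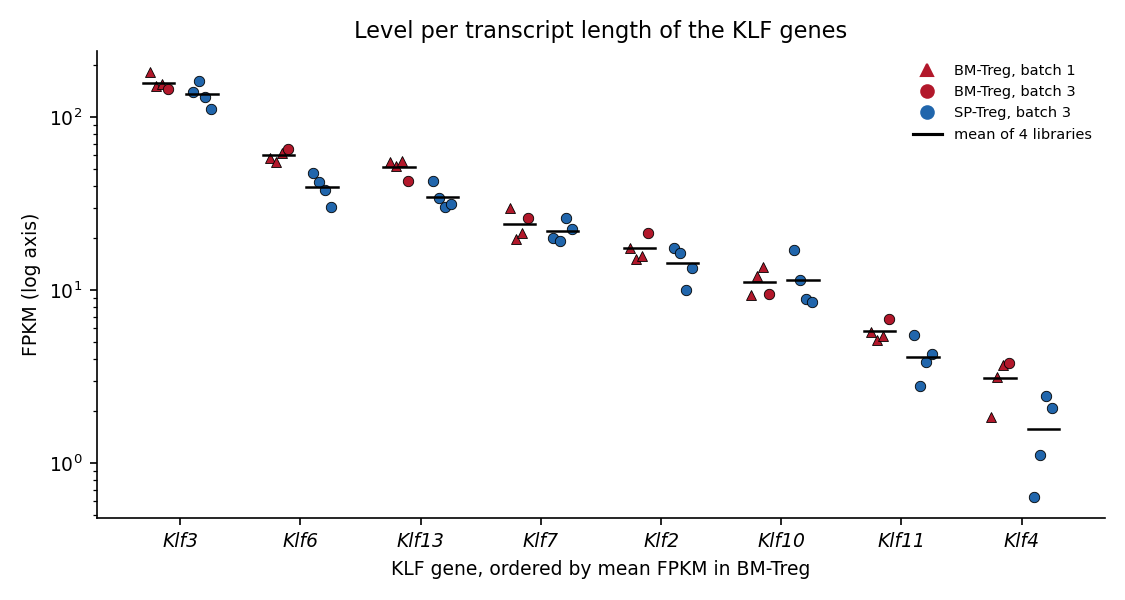
FPKM (log axis) of the 8 KLF genes in each library, ordered by their mean in BM-Treg. Symbols are as in the plot of CPM by library. Klf3 lies above all other members in both tissues, and Klf4 lies lowest.

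The tables list 17 transcripts for the 8 members. Klf2, Klf6, Klf10 and Klf13 have a single transcript each, and in Klf4 and Klf11 a single transcript held 96.8% and 98.1% of the gene's expected counts on average. Only Klf3 and Klf7 divided their counts, between 2 main transcripts each. The main Klf3 transcript held 79.4% ± 3.61 in BM-Treg and 78.9% ± 4.25 in SP-Treg, and that of Klf7 77.3% ± 2.44 and 76.6% ± 1.52 (SD, n = 4 each). None of the 4 transcript shares tested passed the exact permutation test before or after adjustment (adjusted p = 0.829 for each).

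Across the 8 libraries, the genes that tracked each upregulated member most closely were found among 8550 other genes, by the root mean square difference of log2 CPM centred on the gene's mean. Nearest to Klf6 were Irf5 (0.0789), an interferon regulatory factor, Ubash3b (0.0894), a phosphatase gene that dampens T cell receptor signalling, and Ssbp3 (0.0915), a cofactor of LIM-domain complexes. Nearest to Klf13 were Ubl3 (0.0745), a membrane-anchored ubiquitin-like gene, the zinc finger repressor gene Zbtb7a (0.0811) and the predicted gene Gm5424 (0.0863). Among the members themselves the nearest pair was Klf6 and Klf13 (0.190). These distances are descriptions over 8 libraries that also share tissue and batch.

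**Figure D5:**
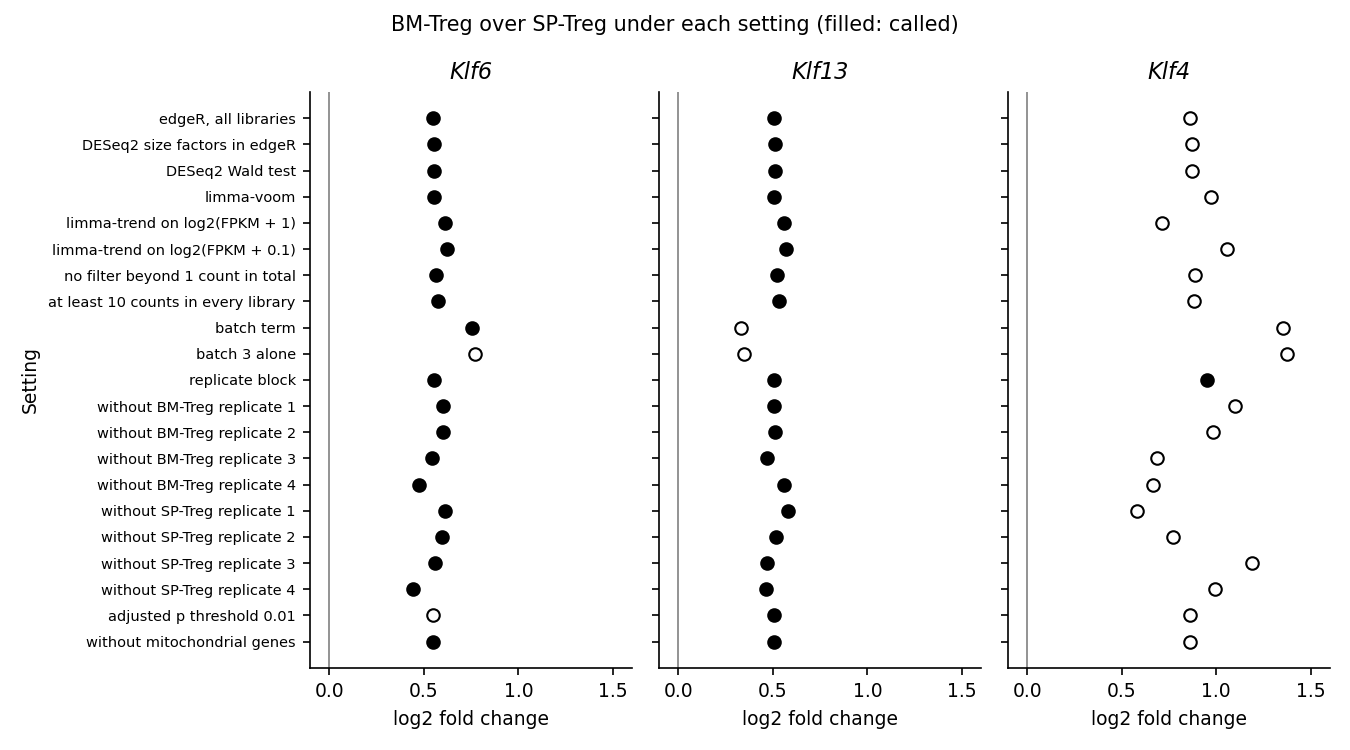
Log2 fold change of BM-Treg over SP-Treg (x axis) for Klf6, Klf13 and Klf4 under each setting (y axis) but the minimum fold change. Filled symbols were called. Klf6 and Klf13 were called in every fit that left out a library, Klf13 was not called with a batch term or in batch 3 alone, and Klf4 was called in the fit with a replicate block alone.

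The plot of settings shows how far the calls of Klf6 and Klf13 depended on single libraries. Leaving out each library in turn gave log2 fold changes of 0.44 to 0.61 for Klf6 (edgeR adjusted p 0.0145 to 0.0400) and of 0.47 to 0.58 for Klf13 (edgeR adjusted p 0.00517 to 0.0279), with 2 of the 8 members called each time. SP-Treg replicate 2, the library with the most B cell marker counts, was among those left out.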

How the data were processed

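The authors deposited expected counts per gene and per transcript (estimated reads, not always whole) and FPKM, with a column per library; 0 columns were left without a sample. The submitters' processing notes name cutadapt 1.9, STAR 2.5.2a, RSEM 1.2.30 and GRCm38; the annotation is not given in the sources used here. Expected counts were rounded to whole numbers, filtered by edgeR's default rule by tissue (13397 of 38215 genes kept), scaled by TMM and compared by the quasi-likelihood test of edgeR 4.0.16 without covariates (R 4.3.3). P values were adjusted by Benjamini-Hochberg over all genes tested, at a threshold of 0.05, and 95% intervals use the test's degrees of freedom. CPM values use TMM library sizes, and log2 CPM a prior count of 2. Because cDNA was amplified without molecular identifiers, the number of counts limits precision only in part, and errors are taken from the spread between libraries. No libraries of a tissue were duplicates (chi-square per degree of freedom 14.6 to 88.5). Single values were also tested by exact two-sided permutation over the 70 splits. limma 3.58.1 and DESeq2 1.42.0 served the alternatives. Of the fits, only the main edgeR fit was tried on simulated counts. These held the same dispersion for every gene, no batch, and larger changes than those of Klf6 and Klf13.

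The members and lists were chosen with earlier results of these data known. Named are all members, other KLF and Sp genes that were called, from each further list up to 4 called genes of largest change or else the 2 with the smallest adjusted p, and the 3 genes (mean log2 CPM of at least 3) nearest each called member. Further genes, such as Foxo1 and S1pr1, are named for their roles and were added after values were seen. The result of 1 listed target gene is not reported here. Of the list genes, those without a row (Ldlrad4, Hbb-bs, Hbb-bt, Jchain, Mzb1, Adgre1) were not analysed here. Promoter letters are RefSeq's for GRCm38.p6; MEF2 and CArG boxes were searched by their usual consensus. Transcript shares were tested where a transcript held at least 5% and under 95% of its gene.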

Additional observations from a re-analysis of the deposited data

Results flagged for a closer look

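In 88 groups of 4 libraries (the named genes, marker sums, totals and mitochondrial shares in each tissue), the gap of the most extreme library to its neighbour was set against the group's range with Dixon's 95% critical value, which chance exceeds in about 1 in 20 groups. It was exceeded in 4, none of them a KLF gene. Tob1 was at 113.2 CPM in BM-Treg replicate 3 and at 94.5 to 97.1 CPM in the other BM-Treg libraries. Ubash3b was at 102.6 CPM in SP-Treg replicate 4 and at 137 to 139 CPM in the other SP-Treg libraries, the library in which Klf6 was also lowest. Il2ra was at 940.2 CPM in BM-Treg replicate 4, the BM-Treg library of batch 3, and at 737 to 763 CPM in the others. B cell markers summed to 149.8 CPM in SP-Treg replicate 2 and to 14.5 to 32.8 CPM in the other SP-Treg libraries. Causes were not tested.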

How the results depend on the processing

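The 2 calls (Klf6 and Klf13) were kept under other normalizations, filters, tools and scales, and whichever of the 8 libraries was left out (2 members called each time). A batch term left 1 (Klf6), batch 3 alone 0, an adjusted p threshold of 0.01 left 1 (Klf13) and a minimum absolute log2 fold change of 1 left 0. Klf13 had a log2 fold change of 0.33 (edgeR adjusted p = 0.266) with the batch term and 0.35 (0.390) in batch 3 alone, and Klf6 had 0.77 (0.119) in batch 3 alone and 0.55 (0.0131) at the stricter threshold. With the batch term, as in batch 3 alone, the tissue difference came from BM-Treg replicate 4 against SP-Treg. The cause of the loss of the Klf13 call with the batch term was not tested, and batch 3 alone has fewer samples. Klf10 turned positive without BM-Treg replicate 1 (0.01) or SP-Treg replicate 1 (0.11), and Klf7 turned negative without BM-Treg replicate 4 (-0.0073). Leaving out libraries moved the log2 fold change of Klf10 from -0.21 to 0.11 and of Klf7 from -0.0073 to 0.17, and every KLF gene but these kept its direction.

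Over all genes, 1172 were called, against 727 (456 up, 271 down) on log2(FPKM + 1) and 701 (436 up, 265 down) on log2(FPKM + 0.1) with limma-trend, 258 with a batch term, 79 in batch 3 alone, 427 at a threshold of 0.01, 310 with the minimum fold change, 1231 (632 up, 599 down) with at least 10 counts in every library, and 690 to 1048 when a library was left out (690 without BM-Treg replicate 2). More genes were called by DESeq2 (1703) and with no filter beyond 1 count in total (1326). Same-numbered libraries correlated at -0.106, 0.0595, -0.176 and 0.0398 in their deviations, which cannot show whether libraries share mice. Replicates 2 and 4 of BM-Treg were nearest to the same number in SP-Treg, and replicates 1 and 3 were not. By the labels, BM-Treg replicates 1 to 3 were female and SP-Treg male, so those numbers did not pair mice. With the replicate block 948 genes were called, and 3 members, since Klf4 passed (log2 fold change 0.95, edgeR adjusted p = 0.0462). Klf16 lost its call there (edgeR adjusted p = 0.0825). Klf4 had as few as 19 counts in a library, which limits what can be said of it.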
